A study of Rattus norvegicus with 71 samples.

Results

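Chemokines, interleukins and the receptors for both were examined in whole lung of newborn rats. The genes were chosen by name, as those whose symbol starts with Ccl, Cxcl, Cx3cl, Xcl, Ccr, Cxcr, Cx3cr or Il followed by a digit, and by detection on at least 3 arrays at a detection p below 0.01. The arrays carried 109 probes for 106 genes of these names, and 68 genes passed, out of 9642 genes that passed the same filter across the array. RNA was measured on 71 Illumina bead arrays, which fall into 18 groups: 3 strains (Brown Norway, Fisher and Lewis), 3 ages (PN1, PN7 and PN14, for postnatal days 1, 7 and 14), and in utero exposure to saline or to ovalbumin, the egg protein used as a model allergen. Each group had 4 arrays (replicates a to d), except for the Fisher saline group at PN7, which had 3. The labels do not say which litter an array came from, so p-values measure the spread between these arrays only. The labels name no genetic alteration. The saline groups are the controls of the exposure.

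Chemokines are small secreted proteins that attract leukocytes along a gradient, and they act through receptors of the G protein-coupled family. The CC and CXC families are named for the spacing of their first cysteines. Interleukins signal through receptor chains that activate JAK kinases and STAT factors, or, for the interleukin 1 and 17 families, adaptor proteins and NF-kB. In the lung, the epithelium, endothelium, macrophages and mast cells make many of them. The eotaxins, interleukin 33 and the interleukin 4, 5, 9 and 13 receptors are known for their part in allergic airway disease.

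Signals are given as log2 of the bead intensity after background correction and quantile normalization, and differences as log2 differences with their SE. A gene detected on no array of a group has only a bound there, given as "at least" a fold. A bound sets the mean of the brighter group against the lowest detected signal of each array of the dimmer group, or the probe's own signal where that is higher. Where a gene was detected on only some arrays of a group, the difference is measured in part from signals not above background. The number of arrays with detection is given for many of these differences, but not for all. Between 10128 and 12437 probes were detected per array, and arrays correlated with the others of their group at 0.963 to 0.995 on average. The 6 lung markers examined, among them the surfactant protein genes Sftpc and Sftpb, were detected on all 71 arrays. Of the arrays, 4 stood apart or were put in doubt by an earlier look at these data. The Lewis PN1 ovalbumin array a had a summed T cell marker level of 14.4 on the log2 scale, against a next highest of 11.7 on any array. The Fisher PN1 saline array a and the Lewis PN7 saline array d had summed liver marker levels of 14.7 and 13.6, the highest of all. The Fisher PN7 saline array c is the fourth, with a summed neutrophil marker level of 12.6 against 10.9 and 10.9 on the other arrays of its group. Exposure results that rest on these arrays are also given without them for part of the genes. Age and strain results of single genes include the saline arrays among the 4. The Lewis PN1 ovalbumin array enters those results only through the estimate of spread shared by all groups. Arrays lay on 6 slides, and saline arrays of PN1 and PN7, or of PN7 and PN14, shared none. Values with slide as a term in the fit are therefore given beside most results of these age steps.

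Of the 15 CC chemokines that passed, 4 were detected on all 71 arrays, as were 7 of 11 CXC or CX3C chemokines, 5 of 12 chemokine receptors, 5 of 14 interleukins or antagonists and 10 of 16 interleukin receptors. In all, 31 genes were detected on all 71 arrays and 11 on under 20. Of the 38 genes that did not pass, 27 were detected on no array. Those 27 included the type 2 cytokine Il13 and the cytokines Il2, Il3, Il6, Il9 and Il10. The receptor chains Il1rl1, which binds interleukin 33, Il5ra, Il6st and Il7r were also detected on no array. A probe without signal does not show that the RNA is absent. Cxcl16 and Il33 each had a probe detected on no array beside a probe detected on all 71. Il4 was detected on 2 arrays, as were Il12a, Il20ra, Il21, Il2ra and Xcl1, just outside the threshold. Just inside it were Cxcr2, detected on 3 arrays, and Ccr9, on 4.

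**Figure D1:**
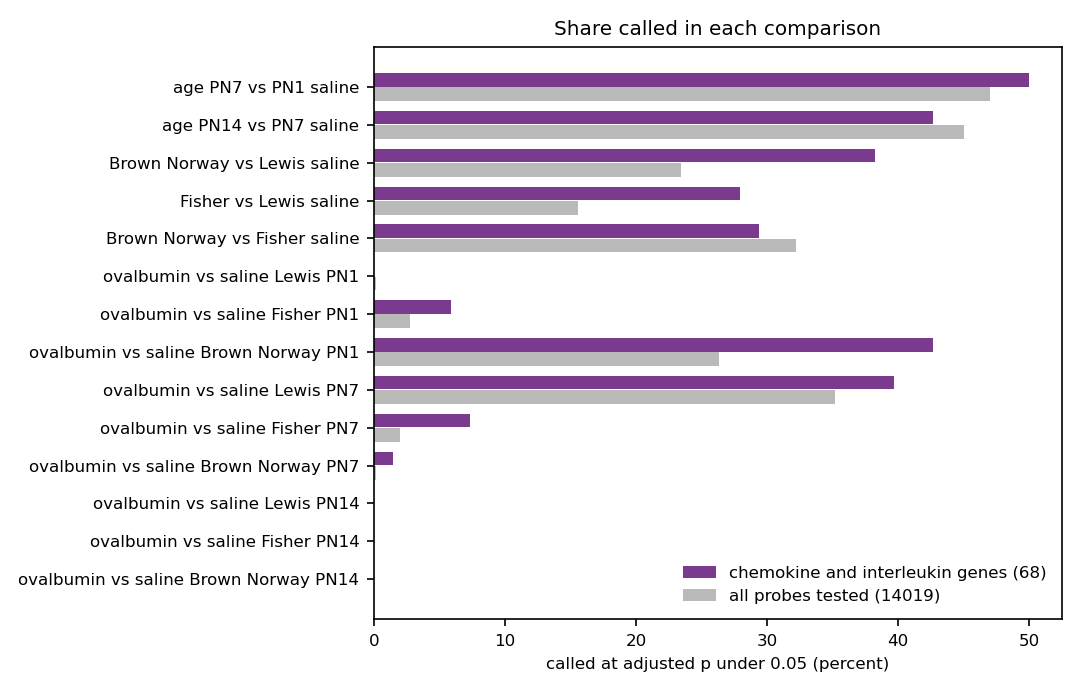
Percentage of the 68 chemokine, interleukin and receptor genes (one bar of each pair) and of all 14019 probes tested (the other bar) that were called at an adjusted p below 0.05, for each of 14 comparisons. The shares lie near each other in most comparisons, and the Brown Norway PN1 exposure is one where the genes' share, 42.6%, is above the 26.3% of all probes.

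The first question was how the genes differ between ages in saline-exposed lung. From PN1 to PN7, averaged over the strains, the monocyte and T cell chemokines Ccl5 and Ccl12 rose, as did Ccl21, a ligand of the lymphocyte homing receptor Ccr7, and Cxcr1, a receptor of neutrophil chemokines. The neutrophil chemokine Cxcl1 fell, and so did Ccl20, the ligand of Ccr6 on dendritic and T cells, and Il18, an interleukin 1 family cytokine. From PN7 to PN14, the eosinophil chemokine Ccl11, Ccl20 and the alarmin Il33 rose. Of the 68 genes, 34 were called from PN1 to PN7 by limma at an adjusted p below 0.05, adjusted over all 14019 probes, 21 higher and 13 lower, or 50% against 47% of all probes, of which 24.3% were higher and 22.7% lower. From PN7 to PN14, 29 were called, 24 higher and 5 lower, or 42.6% against 45%, with 22% of all probes higher and 23% lower. Between PN1 and PN14, 37 were called, 26 higher and 11 lower, or 54.4% against 35.2%, with 17.2% of all probes higher and 18% lower. With slide in the fit, 18 of the 68 genes were called in the first step and 13 in the second, or 26.5% against 26.1% of all probes and 19.1% against 25%. PN14 against PN1 was not refitted with slide, so whether its higher share holds in such a fit is not known. The median difference over the 68 genes was 0.08 and 0.07 on the log2 scale in the first and second step, against 0.02 and -0.02 over all probes. In whole lung, fewer cells of a type and less RNA per cell cannot be told apart.

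Among the CC chemokines, 8 of 15 rose and 2 fell from PN1 to PN7. The lowest, median and highest log2 signals of Ccl5, which attracts T cells and monocytes, were 6.87, 8.36 and 9.66 on the 12 saline arrays at PN1, 9.24, 10.11 and 10.74 on 11 arrays at PN7 and 9.45, 10.15 and 10.85 on 12 arrays at PN14. The difference of PN7 from PN1 was 1.56 ± 0.14 (SE; adjusted p = 1.11e-13), and with slide in the fit it was 1.70, adjusted p = 9.09e-07. Ccl12, a rodent chemokine for monocytes through Ccr2, gave 4.51, 5.45 and 6.78 at PN1 and 5.38, 7.28 and 7.60 at PN7, a difference of 1.52 ± 0.20 (adjusted p = 1.29e-08; with slide 1.03, adjusted p = 0.0103), and it was detected on 5 and 9 of them. Both genes were higher at PN7 in the median, and the age groups overlapped for both. Ccl21 differed by 0.76 ± 0.11 (adjusted p = 6.62e-08) and kept its call with slide in the fit. Its partner ligand Ccl19 did not, at 1.22, adjusted p = 0.106.

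Ccl20 moved down and then up. Its lowest, median and highest signals were 5.61, 6.04 and 8.19 at PN1, 4.82, 5.39 and 5.92 at PN7 and 5.94, 6.40 and 6.80 at PN14, and it was detected on 11, 1 and 12 arrays. All PN14 arrays lay above all PN7 arrays. The fitted difference, with most PN7 arrays not above background, was -0.94 ± 0.15 from PN1 to PN7 (adjusted p = 1.22e-06; with slide -0.98, adjusted p = 0.0043) and 1.10 ± 0.15 from PN7 to PN14 (adjusted p = 5.83e-08). With slide in the fit the second step was no longer called, at 0.74, adjusted p = 0.0562. Markers of several cell types moved with age too. Neutrophil marker genes fell in both steps, 7 of 7 measured and then 5 of 7. B cell markers rose in both, 3 of 3 each time. Of 4 T cell markers 2 rose in the first step and 1 in the second, and of 8 eosinophil and mast cell markers 2 rose and 2 fell, and then 5 rose and none fell. The part of these cells in the age results was not tested.

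The eotaxin Ccl11, ligand of Ccr3 on eosinophils, rose late and reached a different level in each strain. At PN14 the 4 Brown Norway saline arrays read 10.01, 9.12, 8.24 and 8.46, the Lewis arrays 6.99, 7.09, 6.70 and 6.93 and the Fisher arrays 5.85, 5.84, 5.81 and 5.93. The 3 strains did not overlap. At PN7 it was detected on 3 of 4 Brown Norway, 1 of 4 Lewis and 0 of 3 Fisher saline arrays. From PN7 to PN14 the fitted rise was 3.10 ± 0.24 in Brown Norway (adjusted p = 2.14e-15) and 1.41 ± 0.24 in Lewis (adjusted p = 7.15e-05), and in Fisher it was at least 1.06-fold (adjusted p = 0.033). The age course differed between strains by the F test (adjusted p = 9.23e-09). Over all strains the late rise stayed called with slide in the fit, at 1.66, adjusted p = 1.45e-05.

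Of the CXC and CX3C chemokines, 1 of 11 rose and 2 fell from PN1 to PN7, then 4 rose and 3 fell. Cxcl1 gave the largest fall among all 68 genes in the first step. Its lowest, median and highest signals were 9.65, 10.48 and 11.28 at PN1, 7.67, 8.62 and 10.24 at PN7 and 8.65, 9.06 and 11.42 at PN14. PN7 was -1.87 ± 0.21 against PN1 (adjusted p = 1.72e-10; with slide -1.56, adjusted p = 0.00131), and PN14 was 0.61 ± 0.21 against PN7 (adjusted p = 0.0153). Cx3cl1, or fractalkine, which is anchored in the membrane of endothelial and epithelial cells, fell in the second step, with a difference of -0.59 ± 0.12 (adjusted p = 8.84e-05; with slide -1.12, adjusted p = 3.82e-05). The B cell chemokine Cxcl13 was called lower in that step at -0.30 ± 0.10 (adjusted p = 0.0107), and with slide in the fit its sign turned and it was not called.

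The promoters of Cxcl1 and of its neighbour on chromosome 14, Cxcl2, are shown because Cxcl1 moved with age and with exposure and because both hold the same motif. Each run is the 250 bases upstream of the gene's start in RefSeq, build GRCr8, 5′ to 3′ on the gene's strand. Capitals mark matches to the NF-kB-like motif GGNNTTTCC on either strand.
Cxcl1 (chr14:17479322-17479571, minus strand): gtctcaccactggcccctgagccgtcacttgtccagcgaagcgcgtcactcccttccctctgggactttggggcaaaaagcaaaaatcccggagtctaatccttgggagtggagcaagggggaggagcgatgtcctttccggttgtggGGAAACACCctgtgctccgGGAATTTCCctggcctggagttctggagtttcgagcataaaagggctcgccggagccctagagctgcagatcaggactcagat
Cxcl2 (chr14:17467256-17467505, minus strand): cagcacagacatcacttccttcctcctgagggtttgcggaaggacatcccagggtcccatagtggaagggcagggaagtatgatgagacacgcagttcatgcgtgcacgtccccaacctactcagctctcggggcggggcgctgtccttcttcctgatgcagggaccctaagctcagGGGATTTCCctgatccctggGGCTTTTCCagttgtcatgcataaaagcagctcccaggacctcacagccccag
In Cxcl1 the matches began 102 and 83 bases upstream, and in Cxcl2 they began 73 and 53 bases upstream. Of the 68 genes, 51 had a promoter in the table, and 8 of these held the motif, or 15.7%, against 5.19% of 33469 rat promoters of the same length. Each of the 51 genes entered with a single promoter, while the 33469 were not reduced to a single promoter per gene. This holds for every motif share given here. The 8 were Ccl20, Ccr3, Cxcl1, Cxcl2, Cxcl9, Cxcl10, Cxcl11 and Il1rn. A stricter form of this motif, with a further fixed letter, was searched first and was held by fewer of the genes' promoters and of all promoters, so both shares depend on the form chosen. A match is a string of letters and was not tested as a binding site. Cxcl2 itself was detected on 2 of 12 saline arrays at PN1 and on 0 of 11 at PN7. It was not called in the first step (limma adjusted p = 0.129). With signals mostly not above background, this does not show whether its level changed.

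**Figure D2:**
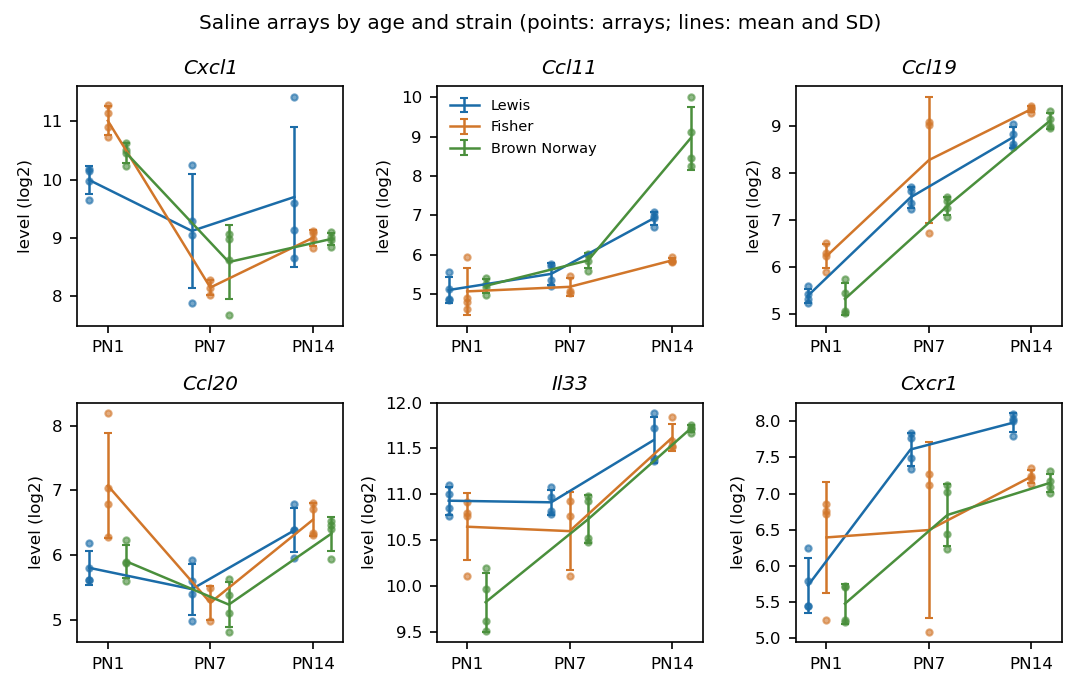
Log2 signal of Cxcl1, Ccl11, Ccl19, Ccl20, Il33 and Cxcr1 on each saline array at postnatal days 1, 7 and 14, coloured by strain, with the mean ± SD of each strain. Cxcl1 dips at day 7, Il33 and Ccl20 at day 14 lie above every day 7 array, and Ccl11 at day 14 separates the 3 strains.

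Chemokine receptors followed in part, with 4 of 12 called higher and 1 lower from PN1 to PN7. Cxcr1 gave 5.22, 5.71 and 6.86 at PN1, 5.09, 7.12 and 7.83 at PN7 and 7.01, 7.28 and 8.10 at PN14. It was detected on 6 of 12, 10 of 11 and 12 of 12 of these arrays. It rose by 1.07 ± 0.16 (adjusted p = 2.02e-07; with slide 1.07, adjusted p = 0.0027) in the first step, and its PN14 arrays lay above all PN1 arrays. Ccr1, a receptor of Ccl3 and Ccl5 on monocytes and neutrophils, went the other way at -0.78 ± 0.09 (adjusted p = 3.48e-10; with slide -0.67, adjusted p = 0.00055).

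Among the interleukins, the interleukin 1 family stood out by count in the second step, with 6 of 8 measured members called higher and none lower, and a median of 0.50. Il33, which is held in the nucleus of epithelial and endothelial cells and released on damage, gave 9.51, 10.77 and 11.10 at PN1, 10.11, 10.82 and 11.08 at PN7 and 11.36, 11.69 and 11.88 at PN14. The PN14 arrays lay above all earlier ones, and the difference from PN7 was 0.89 ± 0.11 (adjusted p = 2.06e-09; with slide 1.32, adjusted p = 5.06e-07). Il1a, an interleukin 1 form present inside cells, rose by 0.77 ± 0.20 averaged over the strains (adjusted p = 0.00114; with slide 1.62, adjusted p = 0.000572). Its age course differed between strains by the F test (adjusted p = 1.02e-06). Its highest PN7 array, at 9.79, lay above its highest PN14 array, at 9.71. Il18 fell in the first step, at -0.86 ± 0.13 (adjusted p = 1.37e-07; with slide -0.88, adjusted p = 0.00301), and rose by 0.72 ± 0.13 in the second (adjusted p = 5.84e-06), where slide in the fit left 0.58, adjusted p = 0.0814. Il15, which sustains natural killer and memory T cells, moved the same way, at -0.50 ± 0.08 and then 0.72 ± 0.08 (adjusted p = 1.27e-06 and 6.02e-10), and stayed called in both with slide in the fit.

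Of the 16 interleukin receptors, 2 rose and 5 fell from PN1 to PN7, and 5 rose and none fell from PN7 to PN14. Il10rb, the chain shared by the receptors of interleukins 10 and 22, fell in the first step at -0.59 ± 0.07 (adjusted p = 1.87e-10; with slide -0.51, adjusted p = 0.00033). Il1r2, a decoy that binds interleukin 1 without signalling, was -0.67 ± 0.17 (adjusted p = 0.00116) but -0.22, adjusted p = 0.616 with slide in the fit. Il22ra2, the secreted interleukin 22 binding protein, was detected on 7 of 12, 1 of 11 and 7 of 12 arrays at PN1, PN7 and PN14. Its fitted steps, with most PN7 arrays not above background, were -0.70 ± 0.17 and 0.79 ± 0.17 (adjusted p = 0.000384 and 8.82e-05), and neither step stayed called with slide. Of 25 measured genes of downstream signalling, 5 were higher and 8 lower in the first step, among them the NF-kB inhibitor Nfkbia at -0.78 ± 0.11 and Stat5b at 0.60 ± 0.10. In the second step 4 were higher and 3 lower.

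The second question was how the strains differ in saline lung. Averaged over the ages, the interleukin 9 receptor Il9r was highest in Brown Norway and lowest in Lewis, Cxcl9 was higher in Fisher and Brown Norway than in Lewis, and the interleukin 22 binding protein Il22ra2 was lower in Fisher than in Lewis. Of the 68 genes, 26 were called between Brown Norway and Lewis, 14 higher and 12 lower in Brown Norway, or 38.2% against 23.4% of all probes, 11.6% higher and 11.7% lower. Between Fisher and Lewis 19 were called, 9 higher and 10 lower in Fisher, or 27.9% against 15.6%, 7.97% higher and 7.67% lower. Between Brown Norway and Fisher 20 were called, 13 higher and 7 lower in Brown Norway, or 29.4% against 32.2%, 15.8% higher and 16.5% lower. A sequence difference under a probe and a difference in RNA cannot be told apart between strains by these arrays.

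Il9r binds interleukin 9, a growth factor of mast cells and T cells. Its lowest, median and highest signals were 4.94, 5.23 and 5.85 on 12 Lewis arrays, 5.42, 5.87 and 6.44 on 11 Fisher arrays and 6.31, 6.90 and 7.13 on 12 Brown Norway arrays, and it was detected on 1, 9 and 12 of them. The Brown Norway and Lewis arrays did not overlap, while Fisher overlapped both. With most Lewis arrays not above background, the fitted differences were 1.56 ± 0.11 for Brown Norway against Lewis (adjusted p = 7.36e-18), 0.67 ± 0.12 for Fisher against Lewis (adjusted p = 1.2e-05) and 0.89 ± 0.12 for Brown Norway against Fisher (adjusted p = 9.77e-09). Of 8 eosinophil and mast cell markers, 6 were higher and 1 lower in Brown Norway than in Lewis, with a median of 0.68, and their part in the result was not tested.

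Among the ligands, Cxcl9, an interferon-induced chemokine for T cells through Cxcr3, gave 5.32, 6.04 and 7.41 in Lewis, 6.55, 7.99 and 8.73 in Fisher and 5.50, 7.75 and 8.31 in Brown Norway. It was detected on 9 of 12 saline arrays at PN1 and on every saline array at PN7 and PN14. It was 1.54 ± 0.29 in Fisher against Lewis (adjusted p = 4.5e-05) and 0.92 ± 0.28 in Brown Norway against Lewis (adjusted p = 0.0112). Cxcl16, the membrane-bound ligand of Cxcr6, was higher than in Lewis by 0.43 ± 0.05 in Fisher (adjusted p = 6.72e-09) and 0.61 ± 0.05 in Brown Norway (adjusted p = 7.55e-15). Ccl5 was higher by 0.83 ± 0.14 and 0.58 ± 0.13 (adjusted p = 4.13e-06 and 0.000614). In a limma fit of saline arrays from 1 slide per age, the Brown Norway value was 0.51 and lost its call (adjusted p = 0.0512). The age course of Ccl5 also differed between strains by the F test (adjusted p = 0.000136). Cxcl12, the ligand of Cxcr4 made by stromal cells, was -0.75 ± 0.10 in Brown Norway against Fisher (adjusted p = 2.36e-08). Il17b, an interleukin 17 family cytokine, was lower than in Lewis in both strains, at -1.06 ± 0.16 in Fisher and -0.76 ± 0.15 in Brown Norway (adjusted p = 1.83e-07 and 7.09e-05), and it was detected on 12, 2 and 7 of the Lewis, Fisher and Brown Norway arrays.

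Among the receptors, Ccr2, the receptor of Ccl2 on monocytes, gave 6.76, 6.89 and 7.41 in Lewis and 6.23, 6.51 and 6.71 in Fisher, groups that did not overlap, and a difference of -0.48 ± 0.08 (adjusted p = 8.48e-06). Ccr1 was below Lewis in both strains, at -0.65 ± 0.09 in Fisher and -0.73 ± 0.09 in Brown Norway (adjusted p = 7.69e-08 and 7.78e-10). Il6r, the interleukin 6 receptor chain, was 0.80 ± 0.15 in Brown Norway against Lewis (adjusted p = 2.85e-05), and Il1r2 was 0.63 ± 0.17 (adjusted p = 0.0035). In a limma fit of saline arrays from 1 slide per age, Il1r2 was 0.59 and lost its call (adjusted p = 0.0908). The age course of Il1r2 differed between strains by the F test (adjusted p = 5.57e-05), so its average does not describe each age alike. Il22ra2 was detected on 9 of 12 Lewis, 0 of 11 Fisher and 6 of 12 Brown Norway arrays. Because it was not well above background on any Fisher array, only a bound holds there, at least 1.12-fold higher in Lewis (limma adjusted p = 1.73e-06).

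The 2 probes of Il17rb, the interleukin 25 receptor, differed in their call between Fisher and Lewis. The probe of higher mean signal gave -0.26 ± 0.09 (adjusted p = 0.033) and the second gave -0.15 ± 0.10 (adjusted p = 0.351). Of the 25 downstream genes, 8 were higher and 1 lower in Brown Norway than in Lewis, with the adaptor Traf6 at 1.12 ± 0.12. In Fisher against Lewis, 2 were higher and 1 lower, with Stat6, which carries the interleukin 4 and 13 signal, at 2.14 ± 0.13 and Jak3 at 0.52 ± 0.12.

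**Figure D3:**
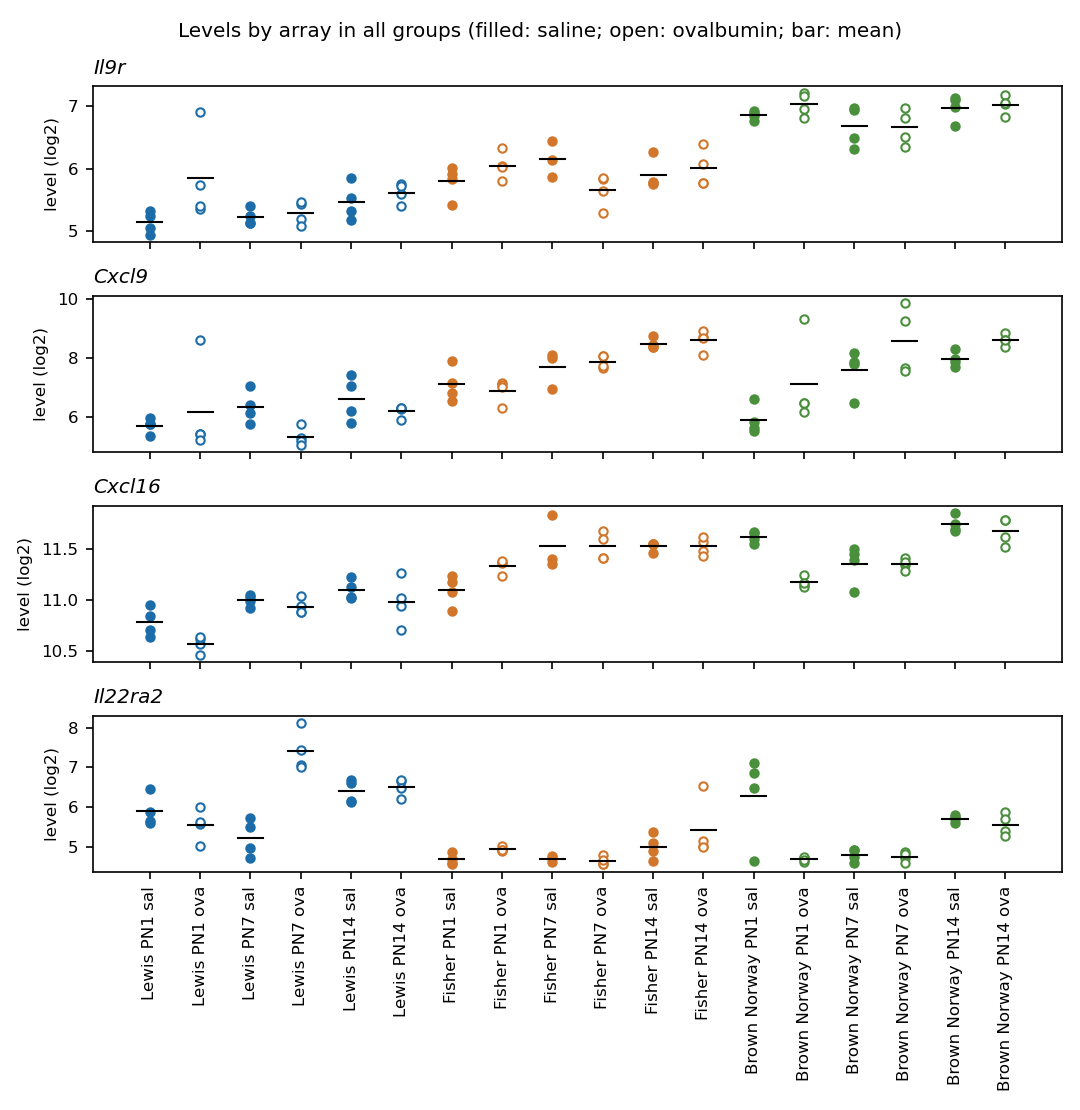
Log2 signal of Il9r, Cxcl9, Cxcl16 and Il22ra2 on every array, by the 18 groups. Il9r in Brown Norway lies above Lewis in saline arrays of all ages. Il22ra2 is highest on Lewis PN7 ovalbumin arrays c and d. In Brown Norway PN1 saline its array b, at 4.66, lies below the others, at 6.49 to 7.10.

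The third question was what in utero ovalbumin changed within each strain and age. At PN1 in Brown Norway, chemokines for monocytes and macrophages were higher after ovalbumin, among them Ccl12 and Ccl2, and receptors of interleukins were lower, among them the decoy Il1r2, Il22ra2 and Il6r. Of the 68 genes, 29 were called, 18 higher and 11 lower, or 42.6% against 26.3% of all probes, 13.7% higher and 12.6% lower. The arrays of the exposures did not overlap for 26 genes, against 31.5% of all probes. Of the 15 CC chemokines, 8 rose and none fell, with a median of 0.96, and of the 16 interleukin receptors 1 rose and 7 fell, with a median of -0.21. Over all 68 genes the median was 0.20, and over all probes -0.0001.

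Ccl2, Ccl7 and Ccl12 are neighbours on chromosome 10, with Ccl11 between them in the gene order, and act on monocytes through Ccr2. Ccl12 was detected on none of the saline arrays, which read 5.01, 4.51, 4.74 and 4.54 for a to d, and on all ovalbumin arrays, at 7.66, 7.41, 6.66 and 6.92, at least 2.62-fold higher (limma adjusted p = 1.23e-07). Ccl2 read 6.54, 6.92, 7.93 and 7.48 on saline and 8.44, 8.76, 8.86 and 8.99 on ovalbumin arrays. Ccl7, detected on 1 of the saline arrays, read 5.83, 5.25, 5.14 and 5.75 on saline and 6.47, 6.51, 6.68 and 6.44 on ovalbumin arrays. Every ovalbumin array lay above every saline array for each of these genes. The fitted differences were 1.54 ± 0.26 for Ccl2 (adjusted p = 7.24e-06) and 1.03 ± 0.23 for Ccl7 (adjusted p = 0.000445). Ccl11 was detected on none of these arrays.

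The promoters of Ccl7 and Ccl12 are shown as 2 neighbours that rose together. Capitals mark the TATA-like motif TATAAA in both and, in Ccl7, also the AP-1-like motif TGANTCA, searched on both strands of the 250 bases upstream.
Ccl7 (chr10:67513845-67514094, plus strand): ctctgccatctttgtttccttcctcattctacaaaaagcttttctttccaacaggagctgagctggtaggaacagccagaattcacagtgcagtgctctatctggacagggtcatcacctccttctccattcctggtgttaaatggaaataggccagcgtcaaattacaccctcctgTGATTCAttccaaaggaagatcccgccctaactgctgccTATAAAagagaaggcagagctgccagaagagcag
Ccl12 (chr10:67567626-67567875, plus strand): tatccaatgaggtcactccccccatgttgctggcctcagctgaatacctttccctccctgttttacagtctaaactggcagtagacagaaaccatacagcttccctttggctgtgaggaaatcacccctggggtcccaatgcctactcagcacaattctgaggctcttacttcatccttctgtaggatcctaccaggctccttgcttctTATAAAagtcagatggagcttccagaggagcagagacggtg
The TATA-like match began 34 bases upstream in Ccl7 and 41 in Ccl12. That motif was in 11 of 51 promoters of the genes, or 21.6%, against 12.9% of all rat promoters, and the AP-1-like motif was in 7, or 13.7%, against 6.34%.

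Other monocyte and macrophage chemokines rose too. Ccl6, a rodent chemokine, read 9.47, 10.33, 9.35 and 9.59 on saline and 11.03, 11.11, 10.82 and 11.16 on ovalbumin arrays and rose by 1.35 ± 0.20 (adjusted p = 4.04e-07). Ccl3 and Ccl4, the macrophage inflammatory proteins next to it on chromosome 10, rose as well. The rise was 1.18 ± 0.27 for Ccl3 (adjusted p = 0.000635) and at least 1.11-fold for Ccl4, detected on none of the saline arrays (adjusted p = 1.98e-05). Of the 11 measured genes of the monocyte and macrophage chemokine list, 7 were called higher and none lower, with a median of 1.03. The macrophage enzyme Mmp12, 1 of 5 measured macrophage markers, rose by 3.20 ± 0.32. The summed level of the 5 did not rise with it. Its mean was 10.91 (10.81 to 11.04) on saline and 10.65 (10.54 to 10.84) on ovalbumin arrays. The summed neutrophil level was 12.52 to 13.10 and 11.62 to 12.24, with 2 of 7 markers called lower, and the part of these cells in the result was not tested.

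Cxcr1 was not well above background on any Brown Norway PN1 saline array, and was at least 2.30-fold higher after ovalbumin (limma adjusted p = 2.2e-05). Il33 read 10.20, 9.97, 9.51 and 9.62 on saline and 11.20, 11.03, 11.11 and 10.88 on ovalbumin arrays, with no overlap, and rose by 1.23 ± 0.18 (adjusted p = 5.24e-07). Cxcl12 rose by 1.04 ± 0.17 (adjusted p = 4.18e-06), Ccl20 by 1.00 ± 0.26 (adjusted p = 0.00248) and Il1a by 0.93 ± 0.34 (adjusted p = 0.0331). Saline array a did not detect Ccl20. Of 10 measured genes of the type 2 and eosinophil list, 2 rose, Il33 and the interleukin 13 decoy receptor Il13ra2 at 0.60 ± 0.23 (adjusted p = 0.0424; detected on 1 of 4 saline arrays), and 1, Il4r, fell. Their median was 0.15.

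Of the 11 genes that fell, 7 were interleukin receptors. Il1r2 read 9.12, 7.99, 9.19 and 9.01 on saline and 6.86, 7.03, 7.22 and 6.97 on ovalbumin arrays, a difference of -1.81 ± 0.29 (adjusted p = 2.2e-06). Il6r read 8.36, 7.24, 8.70 and 8.24 on saline and 6.88, 6.34, 7.06 and 6.48 on ovalbumin arrays, a difference of -1.44 ± 0.26 (adjusted p = 1.73e-05). Il22ra2 was at least 1.48-fold lower (limma adjusted p = 1.39e-05), and Il24, an interleukin 10 family cytokine, at least 1.59-fold lower (adjusted p = 0.000849). Il4r, the receptor chain for interleukins 4 and 13, was -0.73 ± 0.24 (adjusted p = 0.0161), and Il17ra, shared by several interleukin 17 receptors, was -0.59 ± 0.16 (adjusted p = 0.0033). Of the 25 downstream genes, 1 rose and 7 fell, with the cytokine-induced inhibitor Socs2 at -1.40 ± 0.21, the adaptor Myd88 at -1.04 ± 0.23 and Stat5b, the gene that rose, at 0.63 ± 0.16. On slide 3, which held arrays a and b of both exposures, the 10 genes with the largest changes kept their direction, with Ccl2 at 1.87 and Il1r2 at -1.61. The choice of these genes used the same arrays, so the kept direction is no separate support. In a fit of the arrays of that slide alone, 6 genes were called, or 8.82% against 4.99% of all probes.

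At PN7 in Lewis, the second large exposure difference was in the opposite sense for many of the same genes. The B cell chemokine Cxcl13, Il17b, Il1a and Cxcl12 fell after ovalbumin, and Il22ra2, the neutrophil chemokine Cxcl1, Il6r and the Cxcl12 receptor Cxcr4 rose. Of the 68 genes, 27 were called, 14 higher and 13 lower, or 39.7% against 35.2% of all probes, 18.3% higher and 16.9% lower. The exposures did not overlap for 21 genes, against 29.8% of all probes. Of the 15 CC chemokines, 1 rose and 6 fell, with a median of -0.35, and of the 16 interleukin receptors 6 rose and 2 fell, with a median of 0.17. Over all 68 genes the median was -0.01, as against 0.01 over all probes.

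Cxcl13, which guides B cells into follicles through Cxcr5, read 10.01, 9.89, 9.95 and 9.59 on saline and 7.58, 7.93, 7.33 and 7.30 on ovalbumin arrays. The exposures lay far apart, by -2.33 ± 0.17 (adjusted p = 4.57e-16). Cxcr5 was detected on no array, and of 3 B cell markers none was called. Cxcl12 read 10.83, 10.66, 10.50 and 10.50 on saline and 9.52, 10.17, 8.97 and 9.71 on ovalbumin arrays, a difference of -1.03 ± 0.17 (adjusted p = 2.46e-06). Its receptor Cxcr4 read 10.59, 10.53, 10.28 and 9.36 on saline and 11.57, 11.92, 11.47 and 11.50 on ovalbumin arrays and was 1.42 ± 0.22 (adjusted p = 5.51e-07). Without saline array d, which had the high liver marker level given above, it was 1.15 (adjusted p = 3.16e-05), Cxcl13 was -2.42 and Cxcl12 was -1.07, and 26 genes were called.

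Cxcl1, whose promoter is shown above, read 9.29, 9.06, 7.88 and 10.24 on saline and 11.41, 11.50, 10.82 and 10.77 on ovalbumin arrays and rose by 2.01 ± 0.36 (adjusted p = 7.6e-06). Without saline array d the rise was 2.38. Ccl3, detected on 1 of 4 saline arrays, rose by 1.28 ± 0.27 (adjusted p = 0.000133), or 1.68 without that array, and Cx3cl1 by 1.24 ± 0.21 (adjusted p = 2.61e-06). Neutrophil markers moved the same way, 4 of 7 called higher, with the defensins RatNP-3b at 2.85 ± 0.57 and Np4 at 2.22 ± 0.54. Their summed level was 10.76 to 12.39 on saline and 12.02 to 12.84 on ovalbumin arrays, and their part in the result was not tested. Among the 8 measured eosinophil and mast cell markers, the mast cell genes Mcpt10 and Cpa3 fell, at -1.98 ± 0.27 and -1.38 ± 0.25. The summed level of the 8 overlapped between exposures, at 8.996 to 10.253 on saline and 9.421 to 9.642 on ovalbumin arrays. Saline array d was the lowest, and the other saline arrays, from 9.979 up, lay above all ovalbumin arrays. The part of these cells in the result was not tested.

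Ccl19 and Ccl21, the ligands of Ccr7, both fell, at -1.59 ± 0.56 (adjusted p = 0.0207; detected on 1 of 4 ovalbumin arrays) and -0.87 ± 0.18 (adjusted p = 0.000137). The call of Ccl19 was lost without saline array c or without ovalbumin array a, c or d, at -1.52 to -1.41 and adjusted p = 0.0517 to 0.0747. Of the type 2 and eosinophil list, 3 of 10 fell and none rose, with a list median of -0.08. Il33 was -0.70 ± 0.18 (adjusted p = 0.00188). Il13ra2 and Ccl11 were detected on none of the ovalbumin arrays and on 2 and 1 of the saline arrays (adjusted p = 0.00163 and 0.0347). Il13ra2 was at least 1.01-fold lower, and no bound could be given for Ccl11. Il1a was -1.82 ± 0.34 (adjusted p = 1.37e-05), and Il17b, not well above background on the ovalbumin arrays, was at least 1.80-fold lower (adjusted p = 8.07e-08). Il22ra2, detected on 1 of 4 saline and 4 of 4 ovalbumin arrays, read 5.51, 5.74, 4.74 and 4.98 on saline and 7.06, 7.01, 8.12 and 7.44 on ovalbumin arrays and rose by 2.16 ± 0.28 (adjusted p = 7.66e-09). Il6r read 6.55, 6.62, 6.06 and 7.22 on saline and 8.25, 7.93, 8.44 and 7.88 on ovalbumin arrays and rose by 1.51 ± 0.26 (adjusted p = 4.09e-06). Il15 rose by 1.01 ± 0.14 (adjusted p = 4.39e-08) and Il16, a T cell attractant, by 0.87 ± 0.24 (adjusted p = 0.0028). Both exposures were on slides 2 and 4, and the 10 genes with the largest changes had the same direction on each, such as Cxcl13 at -2.46 and -2.19. These genes were chosen by their changes on the same arrays, so the shared direction is no separate support. Of the 25 downstream genes, 10 rose and 1 fell, with Nfkbia at 1.12 ± 0.18, Myd88 at 1.03 ± 0.23, Socs2 at 0.90 ± 0.21 and the gene that fell, Socs1, at -0.82 ± 0.32.

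The 2 comparisons share no arrays. Of the 29 and 27 genes called, 16 were called in both, or 55.2% and 59.3%, and 13 of the 16 had opposite signs, or 81.2%. Among the 2159 probes of the whole array called in both, 95.3% had opposite signs. Over all 68 genes 39 had opposite signs, or 57.4%, against 67.2% of all probes. Ccl3, Cxcr1 and Il3ra had the same sign. The comparison of the 2 was chosen after their values were seen. The difference between them, tested over all probes, was called for 31 of the 68 genes, or 45.6%, against 41.4% of all probes, so the opposite shifts are not shown to be particular to these genes. The difference (Brown Norway minus Lewis) was -2.95 ± 0.37, adjusted p = 1.36e-09 for Il6r and -1.93 ± 0.20, adjusted p = 6.6e-12 for Il15.

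**Figure D4:**
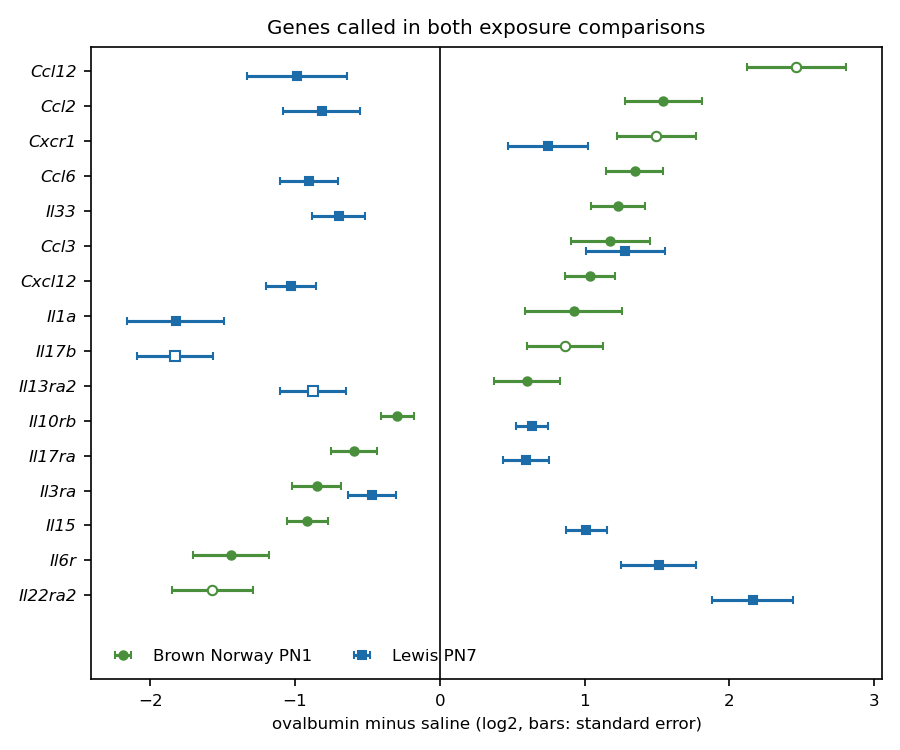
Log2 difference of ovalbumin from saline, with SE, for the 16 genes called in both Brown Norway at PN1 and Lewis at PN7. For 13 of the 16 genes the points lie on opposite sides of 0, while Ccl3, Cxcr1 and Il3ra lie on the same side. Open points mark fitted values where one of the exposures had no array with the gene detected, and show a direction only.

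In Fisher, few genes were called. At PN1, 4 of 68 were called, 1 higher and 3 lower, or 5.88% against 2.75% of all probes, 1.46% higher and 1.3% lower. Cxcr1 read 5.24, 6.75, 6.86 and 6.71 on saline and 5.61, 5.14, 5.22 and 5.17 on ovalbumin arrays, -1.11 ± 0.27 (adjusted p = 0.0119), with saline array a alone below the other saline arrays. It was detected on 3 of the saline and 1 of the ovalbumin arrays. Ccl20 read 8.19, 6.78, 7.04 and 6.28 on saline and 6.42, 5.85, 5.95 and 6.10 on ovalbumin arrays, -0.99 ± 0.26 (adjusted p = 0.0205). Ccl6 was -0.92 ± 0.20 (adjusted p = 0.00299), without overlap, and the mucosal chemokine Cxcl17 rose by 0.64 ± 0.17 (adjusted p = 0.0185). The summed liver marker level of saline array a was 14.7, its part in the result was not tested, and without that array Ccl20 was -0.62 (adjusted p = 0.234), Cxcr1 -1.49 (adjusted p = 0.000384), Ccl6 -0.94 and Cxcl17 0.64, with 3 genes called. Without ovalbumin array b, Ccl6 alone was called. With slide in the fit Cxcr1 was -0.89 (adjusted p = 0.056). Its call was also lost without saline array b, c or d (adjusted p = 0.0506 to 0.0724). Ccl20 lost its call without ovalbumin array c too, and Cxcl17 without that array or without saline array b or d. On slide 3 the differences were -0.63 for Cxcr1, -1.35 for Ccl20, -0.88 for Ccl6 and 0.62 for Cxcl17.

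At PN7 in Fisher 5 were called, all higher, or 7.35% against 2% of all probes, 1.07% higher and 0.934% lower. Cxcr1 read 7.27, 7.12 and 5.09 on the 3 saline and 7.41, 7.04, 7.86 and 8.07 on the ovalbumin arrays, 1.10 ± 0.30 (adjusted p = 0.0352). Saline array c was low and did not detect the gene. Within slide 4, which holds arrays a and b of both exposures, the difference was 0.03. Il1b, the inflammasome-processed interleukin 1, was 1.03 ± 0.25 (adjusted p = 0.018) and 0.51 within slide 4. Ccl6 and Il20rb were 0.81 ± 0.21 and 0.66 ± 0.19 (adjusted p = 0.0336 and 0.0473). Cxcr2 was called as well (adjusted p = 0.0299), but it was detected on none of the saline arrays and on 1 ovalbumin array, c, and no bound could be given. Without saline array c no gene was called, and Cxcr1 was 0.40 (adjusted p = 0.547). That array's summed neutrophil marker level, given above, was the highest of its group. On ovalbumin arrays a to d the summed neutrophil level was 11.5, 11.9, 12.6 and 13.7, all above saline arrays a and b. Of 7 neutrophil markers 1 was called higher and none lower, with a median of 0.91, and the part of neutrophils in the result was not tested. Nor was any called without ovalbumin array c or without ovalbumin array d. With Fisher PN7 arrays of the same letter as a replicate block, a pairing the correlations alone supplied, 1 gene was called.

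At PN7 in Brown Norway, Ccr1 alone was called, or 1.47% of the genes against 0.15% of all probes, 0.0856% higher and 0.0642% lower. It read 8.19, 7.67, 8.46 and 8.07 on saline and 9.16, 9.09, 8.84 and 8.62 on ovalbumin arrays, 0.83 ± 0.15 (adjusted p = 0.0184). The exposures shared no slide there, and with slide in the fit of all arrays the value was 0.54, adjusted p = 0.0824. Without saline array b it was 0.69 (adjusted p = 0.171), and its call was also lost without saline array d or without ovalbumin array a or b. At PN14 limma called none of the 68 in Lewis, Fisher or Brown Norway, against 0%, 0.0143% and 0.00713% of all probes. At an unadjusted p below 0.05 there were 4, 4 and 8. With slide in the fit 4 were called in Lewis, or 5.88% against 10.6% of all probes, and 1 in Brown Norway, or 1.47% against 4.95%. With only the groups compared 2 were called in Brown Norway, or 2.94% against 0.371%. At that age the exposures shared no slide either, so slide and exposure cannot be told apart within it. At PN1 in Lewis none was called, against 0.171% of all probes, and 16 were below an unadjusted p of 0.05. Without ovalbumin array c, 4 were called there.

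Differences between strains in the exposure effect were tested with an F test at each age. At PN1 23 of 68 genes were called, or 33.8% against 22.6% of all probes. In a fit of the arrays of slide 3 alone 3 were called at PN1, or 4.41% against 2.94%. At PN7 24 were called, or 35.3% against 25%, and 15 in a fit of only the groups compared, or 22.1% against 12.7%. At PN14 none was called, against 0%, with 7 at an unadjusted p below 0.05. In the age course of saline lung, 31 genes differed between strains, or 45.6% against 37%. At PN1 the lowest p was that of Ccl6, with an ovalbumin effect of 0.54 ± 0.20 in Lewis, -0.92 ± 0.20 in Fisher and 1.35 ± 0.20 in Brown Norway (adjusted p = 1.4e-07). Cxcr1 was next (adjusted p = 5.15e-06), at 0.56 ± 0.27 in Lewis and -1.11 ± 0.27 in Fisher, while the bound given above holds in Brown Norway. At PN7 it was Cxcl13, at -2.33 ± 0.17 in Lewis, 0.08 ± 0.18 in Fisher and 0.39 ± 0.17 in Brown Norway (adjusted p = 5e-13). In the age course, after Ccl11, it was Ccl6 (adjusted p = 2.91e-07), whose change from PN1 to PN7 was 1.5 ± 0.20 in Lewis, -0.83 ± 0.21 in Fisher and 0.59 ± 0.20 in Brown Norway. The Lewis and Fisher values include the saline arrays in doubt.

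Some arrays stood far from the rest in a few of the genes at once. On the Lewis PN1 ovalbumin array a, the thymocyte receptor Ccr9 read 8.73, Il21r 10.16 and Ccl19 10.24, and the summed T cell marker level was 14.4. The other 3 arrays of the group had means of 5.24 ± 0.18 for Ccr9, 5.37 ± 0.29 for Il21r and 5.37 ± 0.31 for Ccl19 (SD, n = 3). Next highest among all 71 arrays was 5.87 for Ccr9 and 7.34 for Il21r. The part of T cells in these values was not tested.

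The interferon-induced chemokines Cxcl9, Cxcl10 and Cxcl11 lie next to each other on chromosome 14 and were high together on the same arrays. They read 9.34, 8.11 and 7.96 on the Brown Norway PN1 ovalbumin array b. On Brown Norway PN7 ovalbumin array a they read 9.87, 7.51 and 7.95. On Brown Norway PN7 ovalbumin array c they read 9.24, 7.38 and 7.08. On Fisher PN1 saline array c they read 7.90, 7.59 and 6.89. The medians over 71 arrays were 7.06, 5.31 and 5.01. Cxcl11 was highest of all on the Lewis PN1 ovalbumin array a, at 8.06, where Cxcl9 read 8.61 and Cxcl10 6.68. Their promoters are shown as 3 neighbours, with capitals for every match, on either strand, to the NF-kB-like, TATA-like and AP-1-like motifs above, to the STAT-like motif TTCNNNGAA or to the interferon-response-like motif GAAANNGAA.
Cxcl9 (chr14:16006916-16007165, plus strand): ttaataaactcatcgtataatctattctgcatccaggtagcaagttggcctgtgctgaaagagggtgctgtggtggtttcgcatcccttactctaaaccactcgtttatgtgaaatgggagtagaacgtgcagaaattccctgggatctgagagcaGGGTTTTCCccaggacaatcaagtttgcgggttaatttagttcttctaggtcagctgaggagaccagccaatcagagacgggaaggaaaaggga
Cxcl10 (chr14:15988816-15989065, plus strand): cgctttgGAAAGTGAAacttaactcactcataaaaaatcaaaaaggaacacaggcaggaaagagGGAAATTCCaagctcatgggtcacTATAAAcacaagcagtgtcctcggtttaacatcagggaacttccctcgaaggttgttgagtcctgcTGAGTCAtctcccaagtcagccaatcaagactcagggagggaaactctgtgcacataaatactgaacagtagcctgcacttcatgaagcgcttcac
Cxcl11 (chr14:15973478-15973727, plus strand): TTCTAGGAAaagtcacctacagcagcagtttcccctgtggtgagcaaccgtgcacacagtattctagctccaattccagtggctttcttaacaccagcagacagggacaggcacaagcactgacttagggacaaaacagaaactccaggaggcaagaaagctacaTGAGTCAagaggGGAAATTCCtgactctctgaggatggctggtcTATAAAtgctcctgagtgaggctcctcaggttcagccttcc
The NF-kB-like match began 94 bases upstream in Cxcl9, 186 in Cxcl10 and 73 in Cxcl11. The AP-1-like match began 96 bases upstream in Cxcl10 and 85 in Cxcl11, where it and the other matches did not overlap. The interferon-response-like match of Cxcl10 lay near the upstream end of its window, and the windows of Cxcl9 and Cxcl11 held none. That motif was in 5 of 51 promoters of the genes, or 9.8%, against 8.12% of all rat promoters, and the STAT-like motif in 5, or 9.8%, against 7.67%.

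**Figure D5:**
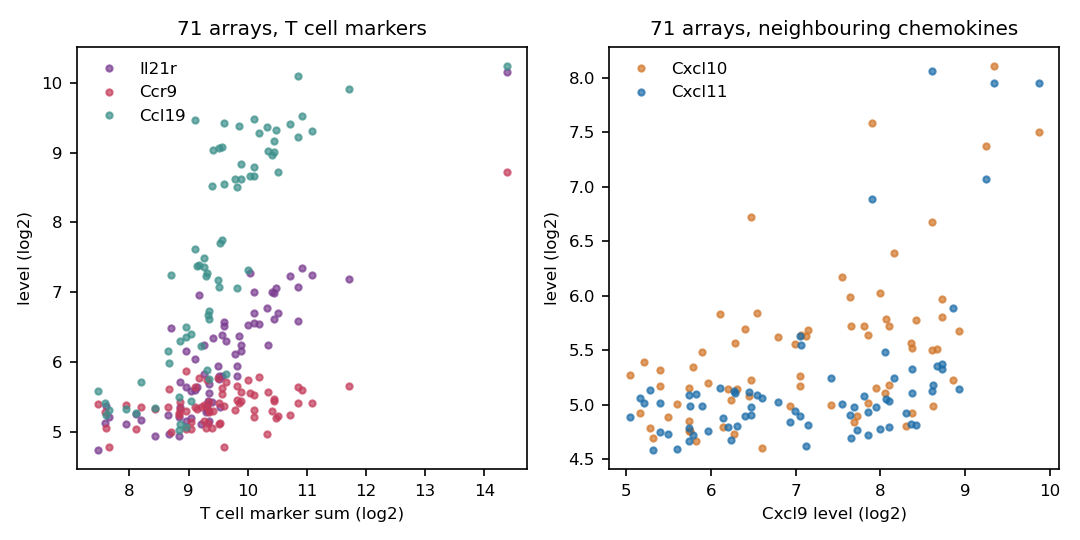
Left, log2 signal of Il21r, Ccr9 and Ccl19 against the summed T cell marker level of each of 71 arrays, where the Lewis PN1 ovalbumin array a lies apart at 14.4. Right, Cxcl10 and Cxcl11 against Cxcl9 on each array, where the array highest in Cxcl9, at 9.87, reads 7.51 in Cxcl10 and 7.95 in Cxcl11.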

How the data were processed

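Whole-lung RNA was extracted with Trizol and biotin-labelled as cRNA with the MessageAmp kit, per the labels' protocols. The authors deposited, per the file headers, a raw mean bead intensity and a detection p-value for each of 22523 probes on 71 arrays, with no background correction seen in the values. They also deposited a log2 table, which equals the quantile-normalized log2 intensity within 5e-05. Bead standard errors and bead numbers, 142 columns, were not used. The array software is not given in the sources used here.

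Intensities were background-corrected and quantile-normalized with neqc (offset 16) in limma 3.58.1 (R 4.3.3). Probes with a detection p below 0.01 on at least 3 arrays were kept, 14019 in all. A mean for each of the 18 groups was fitted with lmFit and eBayes with trend, with 53 residual degrees of freedom, and p-values were adjusted by Benjamini-Hochberg over the 14019 probes. A gene was called at an adjusted p below 0.05. Differences are log2 with SE, and levels of different probes were not compared. Where a gene had several probes that passed, the one of higher mean signal was used, and the other is given for Il17rb. Second probes of Cxcl16 and Il33 were detected on no array. The number of arrays limits the precision.

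Genes and lists were chosen with earlier results of these data known. Named were the 8 largest rises and falls called in each age or strain comparison, the 5 largest in each exposure comparison, the 5 of lowest p in each F test, and genes of the lists. Names and gene order came from RefSeq (GRCr8), and promoters from the RefSeq promoter table. The NF-kB-like and interferon-response-like motifs were first searched in stricter forms with a further fixed letter. The shorter forms replaced them, for reasons of reporting and not of their matches, after the stricter forms' results were known.

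Same-lettered saline and ovalbumin arrays were checked for pairing by the correlation of their deviations from group means. Every pair was above 0.1 only in Fisher PN7, at 0.340 to 0.433, and no label explains the letters. Results were recomputed from the deposited log2 values, from uncorrected intensities, over all probes, with slide as a random block or as a fixed term, with the letter as a block, from the compared groups alone, without each array, without 4 arrays in doubt, and within 1 slide. The Fisher PN7 pair block was added after seeing the data. The procedure was tested on simulated data. Figures were drawn with matplotlib 3.10.9.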

Additional observations from a re-analysis of the deposited data

Results flagged for a closer look

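In 63 combinations of a gene and a group of 4 arrays, the gap of the highest or lowest array to the nearest other was set against the range of the group. Most combinations came from the genes named in the exposure comparisons. Ccr9 and Il21r in Lewis PN1 ovalbumin, and Cxcl9, Cxcl10 and Cxcl11 in Brown Norway PN1 and PN7 ovalbumin, were added by choice, with earlier results known. In 10 of them 1 array lay further out than the critical value of Dixon's test allows. Chance meets this rule in about 1 of 20 combinations not chosen by their values. Because some combinations were added by choice and are among the 10, the count cannot be set against that rate. In Fisher PN1 saline, array a was low for Cxcr1 (5.24, the others 6.71 to 6.86), with a gap of 0.909 of the range. In Brown Norway PN1 saline, array b was low for Il1r2 (7.99, the others 9.01 to 9.19), at 0.848. In Brown Norway PN1 ovalbumin, array a was low for Il24 (5.2, the others 5.42 to 5.44), at 0.909. No array of that group detected Il24, so this gap lies between signals not above background. In Lewis PN7 ovalbumin, array b was high for Ccl19 (7.38, the others 5.32 to 5.50), at 0.913. In Fisher PN7 ovalbumin, array c was high for Il1b (9.07, the others 8.32 to 8.45), at 0.832. In Lewis PN1 ovalbumin, array a was high for Ccr9 at 0.913 and for Il21r at 0.89. In Brown Norway PN1 ovalbumin, array b was high for Cxcl9 at 0.895, Cxcl10 at 0.871 and Cxcl11 at 0.922.

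The other genes stand out because an effect differed between strains by the F test. In the age course of saline lung these were Ccl11 (adjusted p = 9.23e-09), Ccl6 (2.91e-07), Il1a (1.02e-06), Il1r2 (5.57e-05) and Ccl5 (0.000136). In the exposure effect at PN1 they were Ccl6 (adjusted p = 1.4e-07), Cxcr1 (5.15e-06), Ccl12 (1.94e-05), Il15 (2.95e-05) and Cxcl12 (4.71e-05). At PN7 they were Cxcl13 (adjusted p = 5e-13), Cxcr4 (3.16e-06), Il22ra2 (1.06e-05), Ccl6 (2.56e-05) and Ccl21 (8.59e-05).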

How the results depend on the processing

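Of 121 named gene results, 118 kept their direction and call with the authors' values and with no background correction, all but 6 without the detection filter and with slide as a random block, 113 without the 4 arrays in doubt, 109 with only the groups compared and 99 with slide as a fixed term. Within 1 slide, which leaves fewer arrays, 18 of 34 did, within 1 slide per age 38 of 47, and with pairs of Fisher PN7 as a replicate block 1 of 5. Counts of the 68 genes called follow, with their share against that of all probes in the same fit in brackets. With slide as a fixed term it was 18 for PN7 against PN1 (26.5% against 26.1%) and 13 for PN14 against PN7 (19.1% against 25%). It was 0 for Fisher PN7 (0% against 0.0428%) and 5 for Brown Norway PN7 (7.35% against 5.66%). It was 4 for Lewis PN14 (5.88% against 10.6%) and 1 for Brown Norway PN14 (1.47% against 4.95%). The PN14 against PN7 difference of Cxcl13 reversed to 0.121. With slide as a random block it was 3 for Fisher PN7 (4.41% against 1.5%) and 0 for Brown Norway PN7 (0% against 0%). With only the groups compared it was 1 for Fisher PN1 (1.47% against 1.68%) and 2 for Brown Norway PN14 (2.94% against 0.371%). It was 15 for the exposure by strain at PN7 (22.1% against 12.7%), and 0 for Fisher PN7 and Brown Norway PN7 (0% against 0%). Within 1 slide it was 0 for Fisher PN1 (0% against 2.59%) and 6 for Brown Norway PN1 (8.82% against 4.99%). It was also 0 for Fisher PN7 (0% against 0%) and 3 for the exposure by strain at PN1 (4.41% against 2.94%). For Fisher PN7 it was 3 without the detection filter (4.41% against 0.764%) and 1 without the 4 arrays in doubt (1.47% against 1.31%). With pairs as a replicate block it was 1 there (1.47% against 0.157%). With the replicate letter as a block in the fit of all arrays, 27 were called for Lewis PN7 (39.7% against 35.3%). For Brown Norway PN1 it was 29 (42.6% against 26.4%), and no other count moved by over 1.5 times. Leaving out each array in turn gave 0 to 4 for Lewis PN1, 1 to 4 for Fisher PN1, 0 to 9 for Fisher PN7 and 0 to 3 for Brown Norway PN7. The shares of all probes in those fits are not given here, so these ranges are not particular to the 68 genes. The lowest of these counts came without Fisher PN1 ovalbumin b, Fisher PN7 saline c and Brown Norway PN7 saline b, and the highest without Lewis PN1 ovalbumin c, Fisher PN7 ovalbumin a and Brown Norway PN7 saline a. The cause of these changes was not tested. Differences from a group in which few arrays detected a gene, such as Il9r in Lewis or Ccl20 at PN7, rest in part on signals not above background.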
